A study of Mus musculus with 2 samples.

Results

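Type 1 conventional dendritic cells (cDC1) are the dendritic cells that take up dying cells and present their antigens on MHC class I to CD8 T cells. They depend on the transcription factors IRF8 and BATF3 and on the cytokine receptor FLT3. They carry XCR1, the receptor for the chemokine XCL1 of NK and CD8 T cells, and CLEC9A, a receptor for actin exposed by dead cells. They are known as a main source of IL-12 and of the chemokines CXCL9 and CXCL10 in tissue.

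In this series 169 cells were assigned to cDC1, of 24093 cells that passed quality filters. They were chosen by measured UMI counts (UMIs, unique molecular identifiers, are tags that mark single RNA molecules), so the levels of the genes used are a description and not a finding. A member had at least 2 UMIs of Xcr1 and Clec9a together and at least 1 UMI of Flt3 and Wdfy4 together. It had at most 10 UMIs of the complement genes C1qa, C1qb and C1qc, which mark macrophages, no UMI of Siglech or of Cd3d, Cd3e and Cd3g, under 2 UMIs of Fscn1, and at most 2 UMIs of Cd79a, Cd79b and Ms4a1. The cells came from liver non-parenchymal cells of mice treated for 8 weeks with CCl4 (carbon tetrachloride, given intraperitoneally), which damages hepatocytes and leads to scarring, with 1 library of Mfap2+/+ mice (wild type, WT) and 1 library of Mfap2-/- mice (knockout, KO). All animals received CCl4, so an uninjured liver is not part of the comparison. Mfap2 encodes a glycoprotein of extracellular microfibrils, and the deletion is not described in the labels as limited to a cell type. The labels give neither strain, age nor the number of mice behind a library. Each genotype has a single library, so nothing is tested between them, and genotype, animal and library preparation cannot be told apart. Values below are counts summed over the cDC1 of a library, given as CPM (counts scaled to a total of 1e+06), with exact 95% intervals that cover counting error only. Ratios are KO over WT on the log2 scale, with 1 count added to each sum.

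The wild-type library held 86 cDC1 of 11370 cells and the knockout library 83 of 12723. A wild-type cDC1 had a median of 15002 UMIs (1386 to 35782) and a knockout cDC1 a median of 17330 (1602 to 35634), well above the medians of all filtered cells, 4932.5 and 6587. Mfap2 had no UMI in the cDC1 of either library, which allows at most 2.34 CPM in wild type and 2.19 CPM in knockout, so it checks no label here. The libraries shared 40 barcodes, and none of them was a cDC1.

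The sequences below are shown because the groups of genes that differed most between the libraries, heat-shock and interferon response genes, are known to be controlled through short elements near their start sites. Windows run from 250 bases before to 50 bases after the annotated start and are taken from RefSeq on mouse build GRCm38.p6, written 5′ to 3′ on the gene's strand. Capitals mark a match to GAANNTTC, a pair of inverted heat-shock units, in Bag3 and Hspd1, and to TTTCNNTTTC, the interferon-stimulated response element, in Rsad2. Bag3 encodes a co-chaperone of HSP70, Hspd1 the mitochondrial chaperonin HSP60, and Rsad2 the antiviral enzyme viperin.
Bag3, chr7:128523333-128523632, plus strand: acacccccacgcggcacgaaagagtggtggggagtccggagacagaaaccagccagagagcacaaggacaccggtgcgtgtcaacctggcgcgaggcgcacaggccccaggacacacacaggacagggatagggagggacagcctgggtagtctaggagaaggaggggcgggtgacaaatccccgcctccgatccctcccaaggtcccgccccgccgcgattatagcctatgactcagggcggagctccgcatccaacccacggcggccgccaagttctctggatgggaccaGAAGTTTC
Hspd1, chr1:55087883-55088182, minus strand: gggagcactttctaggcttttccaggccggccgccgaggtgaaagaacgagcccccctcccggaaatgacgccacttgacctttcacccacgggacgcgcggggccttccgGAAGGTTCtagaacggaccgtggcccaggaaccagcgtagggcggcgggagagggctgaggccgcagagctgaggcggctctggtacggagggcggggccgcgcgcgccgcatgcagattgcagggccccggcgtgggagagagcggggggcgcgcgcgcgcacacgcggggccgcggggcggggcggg
Rsad2, chr12:26456403-26456702, minus strand: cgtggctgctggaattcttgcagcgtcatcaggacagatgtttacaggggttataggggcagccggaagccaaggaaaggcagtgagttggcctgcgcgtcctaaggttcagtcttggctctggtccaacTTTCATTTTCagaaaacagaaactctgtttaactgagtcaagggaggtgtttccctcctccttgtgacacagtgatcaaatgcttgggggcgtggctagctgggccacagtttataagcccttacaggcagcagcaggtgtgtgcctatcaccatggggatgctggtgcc
The Hspd1 window lies within the span that GENCODE M21 gives Hspd1 and reaches into the start of Hspe1 on the opposite strand, whose own window holds the match too. RefSeq gives Hspd1 another start, whose window holds no match. Searched on both strands, GAANNTTC was found in the windows of 10 of the 20 heat-shock list genes with a RefSeq window (50%), against 9.04% of all 27025 genes. TTTCNNTTTC was found for 11 of 20 interferon list genes (55%), against 3.99% of all genes. The cDC1 identity genes held them in 1 (5.26%) and 2 (10.5%) of 19. A match says only that these letters stand in the window. The lists hold genes known for these responses, whatever their ratios here. The windows shown were all of genes with a match, and that of Bag3 lies after the annotated start. Hspa5, Hspa4l, Oasl1 and Ifit2, all past 1.5-fold higher, had no match. Hspe1, Hspa1a and Hspa1b, under the fold, had one. A match thus did not set apart the listed genes that differed.

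The identity of the cells was checked with genes that the selection did not use, although all genes of the chosen cells follow the choice and no test is given. Irf8 stood at 1307 CPM in wild type and 1115 CPM in knockout cDC1, against 186 and 210 CPM in all other cells of each library. Batf3 was 183 and 140 CPM in cDC1 and 22.9 and 25.5 CPM elsewhere. Naaa, a lysosomal acid amidase, was 711 and 545 CPM against 38.8 and 38.4 CPM. Itgae, the CD103 integrin chain, was 113 and 85.6 CPM against 3.85 and 6.39 CPM. Of the 24 genes of a cDC1 identity list, 20 had at least 100 UMIs in the cDC1 of both libraries together, and 13 of these were at least 4-fold above all other cells in both libraries. Over all 3761 genes with that many UMIs the percentage was 2.02. The summed cells thus carried the markers of the name.

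Beyond the list, the genes that stood furthest above all other cells in both libraries were led by Htr7, a serotonin receptor, at 928 and 1051 CPM in cDC1 and 24.2 and 49.7 CPM elsewhere. Gcsam, Snx22, Ffar4, Sept3, 4931406G06Rik, Gpr141b, Naaa, Hepacam2, Itgae, Ccser1, Ifi205, Mycl, Strip2 and 9130015A21Rik followed. Ffar4 is a receptor for long-chain fatty acids, at 35.1 and 40.9 CPM in cDC1 and 1.40 and 2.24 CPM elsewhere. Mycl, a transcription factor of the MYC family that cDC1 are known to use, was 129 CPM in wild type and 55.6 CPM in knockout, and 3.61 and 5.23 CPM in other cells.

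Against cDC2, the other conventional dendritic cells, 12 of the same 20 identity genes were at least 4-fold higher in both libraries, where 1.37% of 4960 genes were. The 64 genes at least 4-fold lower than in cDC2 made up 1.29%. The cDC2 here were chosen with Cd209a, with Flt3 or Clec10a, and without Xcr1 or Clec9a. Irf8 was 28.7 and 52.1 CPM in them. Adam19, P2ry14 and P3h2, named after their values were seen, were among the genes furthest above cDC2. Mgl2 and Irf4, genes of cDC2 that the choice of cDC2 did not use, were among the furthest below, with Mgl2 at 3.66 CPM in knockout cDC1. Some cDC1 genes were shared with other types. Clec9a was also found in plasmacytoid dendritic cells (pDC, Siglech of at least 3) at 98.1 and 110 CPM, with Irf8 there at 1553 and 1738 CPM. Batf3 reached 193 CPM in both libraries in migratory dendritic cells, defined by Fscn1 and Ccr7.

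**Figure D1:**
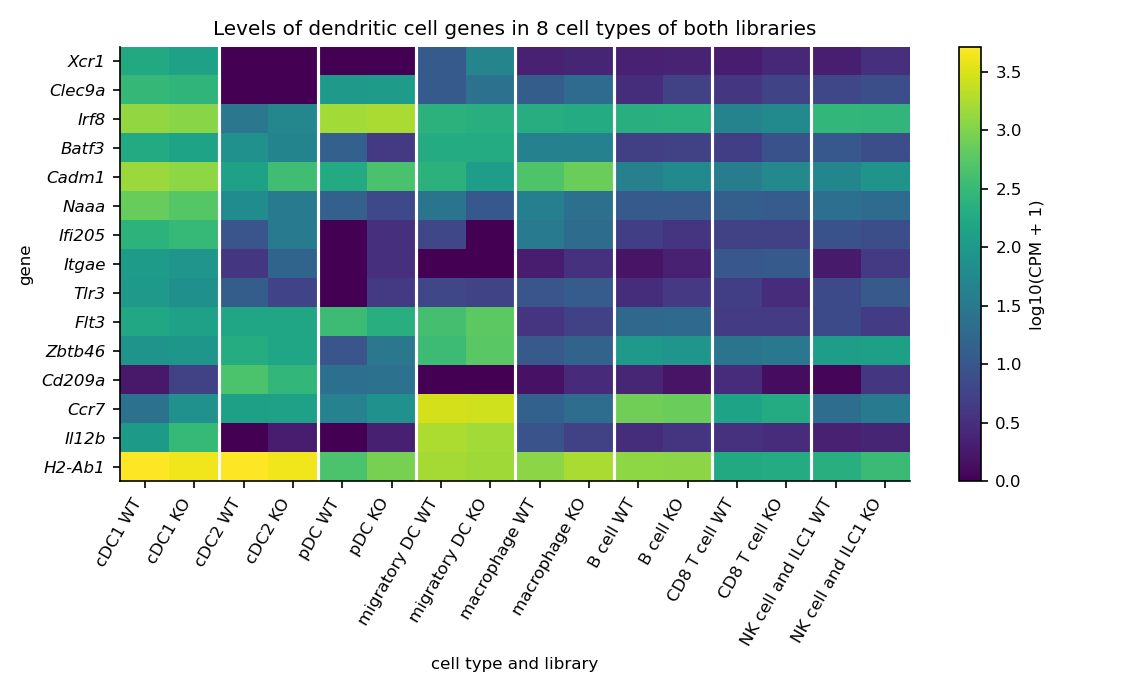
Levels of 15 dendritic cell genes (rows) in 8 cell types of the WT and KO libraries (columns), as log10(CPM + 1) of UMIs summed over the cells of a type. Xcr1, Clec9a, Naaa, Ifi205, Itgae and Tlr3 are brightest in cDC1, Irf8 is shared with pDC, and Il12b is highest in migratory dendritic cells, followed by cDC1.

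Some members carried markers of another lineage, and they were not equally spread. In 10 knockout cDC1 the endothelial markers Stab2, Clec4g, Kdr, Pecam1, Cdh5, Lyve1 and Ptprb summed to between 20 and 143 UMIs, while the highest other knockout member had 8 and the highest wild-type member 5. These 10 cells had 2 to 4 UMIs of Xcr1 and Clec9a, at the edge of the selection, and the identity list held 0.0159% to 0.234% of their UMIs, against a median of 0.675% over all knockout members. These cells met the rule with few identity UMIs. In addition, 3 knockout cells held 131 to 278 neutrophil marker UMIs, and 4 wild-type cells held markers of neutrophils (1832 UMIs in 1 cell), monocytes, macrophages or B cells. Together these were 13 knockout cells with 11.7% of the UMIs and 4 wild-type cells with 6.32%. The rule that set them apart was chosen after the data were seen, at 10 or more UMIs of a lineage and 5 times the library median. The counts and medians of the gene lists below are given with and without them. Ratios without them are given for some of the single genes that lose their call. Of them, 3 knockout and 1 wild-type cells were among the cells with the highest Scrublet doublet scores, and beyond this their being doublets was not tested.

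**Figure D2:**
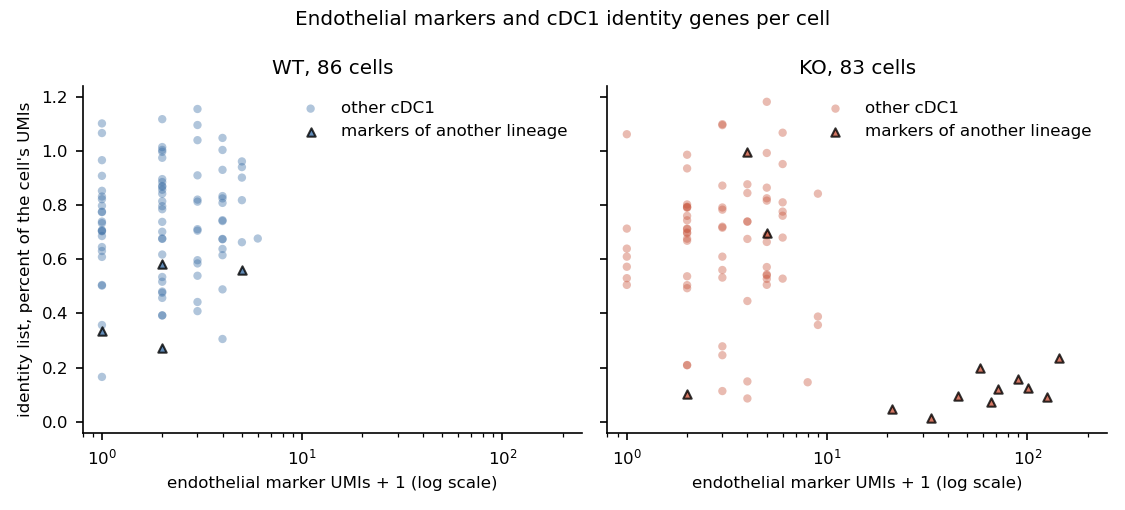
Each point is 1 cDC1, with its endothelial marker UMIs plus 1 (log scale) against the percent of its UMIs that fell on the identity list, in the WT (left, 86 cells) and KO (right, 83 cells) library. Triangles are the 4 WT and 13 KO cells with markers of another lineage, and 10 KO triangles lie at 20 to 143 endothelial UMIs and at no more than 0.234% identity UMIs.

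Low levels of other markers were found across the remaining cells. The macrophage list (12 genes, C1q included) summed to 718 CPM in wild-type and 662 CPM in knockout cDC1 without the cells above. The neutrophil list was 827 and 634 CPM, the B cell list 521 and 621 CPM, the hepatocyte list 144 and 263 CPM and the erythroid list 475 and 111 CPM. The T cell markers Cd3d, Cd3e and Cd3g were at 0 by the rule, and the whole T cell list of 9 genes at 29.1 and 31.5 CPM. The pDC list of 10 genes was 323 and 379 CPM, or 316 and 512 CPM over all members, with Siglech at 0 by the rule and Cox6a2 at 0 in both libraries. The part of these levels in the results was not tested.

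The share of cDC1 was 0.756% (0.605 to 0.933) of filtered wild-type cells and 0.652% (0.520 to 0.808) of filtered knockout cells. The log2 ratio was -0.21, with a counting interval of -0.67 to 0.24 that includes 0. This value depended on the C1q limit. At most 3 C1q UMIs left 20 wild-type and 7 knockout cells, while at most 20 gave 103 and 140 cells (0.906% and 1.10%) and at most 30 gave 106 and 151 (0.932% and 1.19%), with the knockout share then the higher. Just inside the limit, at 9 or 10 C1q UMIs, lay 13 wild-type and 30 knockout cells. Just outside, at 11 or 12, lay 10 and 17 cells, whose identity list stood at 7515 and 7243 CPM against 7612 and 6470 CPM just inside. The other thresholds had neighbours too. At exactly 2 UMIs of Xcr1 and Clec9a there were 15 and 14 members (identity list 6143 and 2652 CPM), and at 1 UMI, outside, 56 and 88 cells (3078 and 1735 CPM). At a single Cd3 UMI, outside, there were 17 and 15 cells with 6890 and 7362 CPM. No direction of the cDC1 share can be read from these numbers.

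cDC1 made up 86 of 168 dendritic cells in wild type, 51.2% (43.4 to 59.0), and 83 of 276 in knockout, 30.1% (24.7 to 35.9). The log2 ratio was -0.77 (-1.22 to -0.32), and it was below 0 under all 13 alternatives that gave a value, from -2.49 to -0.36. Those on Xcr1 and Clec9a, Flt3 and Wdfy4, C1q, Cd3 or markers of other lineages changed the choice of cDC1 only. The rules of the other dendritic cells stayed the same, so these alternatives do not vary both sides of the share. By their fixed UMI limits, more cDC2 and pDC were counted in the knockout library. Cells were also deeper there, with wild-type and knockout medians of 9330 and 13100 UMIs in cDC2 and 8533.5 and 10911 in pDC. Their counts at equal depth or under other limits of their own are not given here. cDC2 were 38 and 91 cells, or 0.334% and 0.715% of filtered cells, and pDC were 26 and 81 cells, or 0.229% and 0.637%. Migratory dendritic cells were 18 and 21. Of cDC1 and cDC2 together, cDC1 were 69.4% in wild type and 47.7% in knockout.

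**Figure D3:**
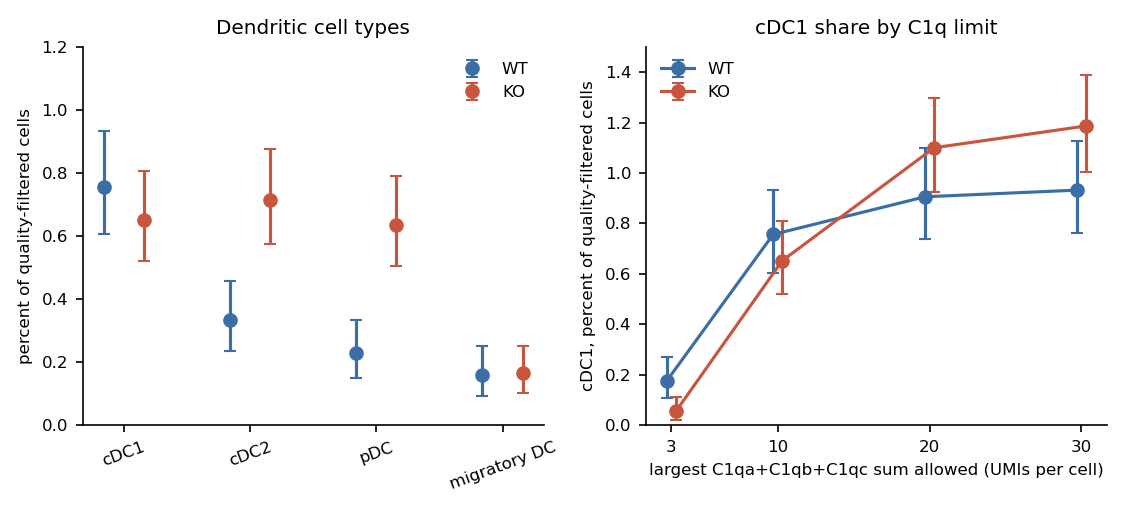
Left, percent of quality-filtered cells in 4 dendritic cell types of the WT and KO libraries, with exact binomial 95% intervals. Right, the cDC1 percent when at most 3, 10, 20 or 30 C1q UMIs are allowed per cell: WT is the higher at 3 and 10 (0.756% against 0.652% at 10), and KO at 20 and 30 (1.10% against 0.906% at 20).

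Between the libraries, 641 of 3761 genes with at least 100 UMIs in cDC1 (17%) were at least 1.5-fold higher in knockout and 135 (3.59%) at least 1.5-fold lower. Without the cells with markers of another lineage these were 382 of 3368 (11.3%) and 102 (3.03%). The counts describe these libraries only, and the larger number of higher genes is the background for all lists below. The median log2 ratio of all these genes was 0.11, and 0.09 without those cells. Scaled by the median of ratios, which takes this shift out, 517 genes were past the fold higher and 239 lower.

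Heat-shock proteins and their co-chaperones, which refold damaged proteins, were higher in knockout cDC1 across the list. Of 20 listed genes with enough UMIs, 19 had a ratio above 0 and 11 were past 1.5-fold higher (12 without the cells of other markers), with none past 1.5-fold lower. The median log2 ratio was 0.69, and 0.72 without those cells. Hspd1 stood at 287 CPM (258 to 318) in wild type and 837 CPM (789 to 887) in knockout, a log2 ratio of 1.54. Bag3 stood at 76.4 CPM (62.0 to 93.1) and 301 CPM (273 to 332), a ratio of 1.97. Neither gene's intervals overlapped between the libraries, but these cover counting error only. The share of all genes without such overlap was not counted, so this does not set these genes apart. Hspa5, the chaperone BiP of the endoplasmic reticulum, was 609 and 1514 CPM, and Hsph1, an HSP110 co-chaperone, 523 and 1117 CPM. Hspa4l was 27.3 and 101 CPM. Hspa1a and Hspa1b, the inducible HSP70 genes, are near-identical copies whose reads can be assigned to either, and they had smaller ratios of 0.43 and 0.49 from the high levels of 2301 and 2646 CPM in wild type. Hspe1, the partner of Hspd1 with which it shares a promoter region, was 597 and 837 CPM. Hspd1 and Hspe1 overlap on opposite strands in GENCODE M21, and how the counting used strand is not given in the sources used here.

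The heat-shock list held a median of 1.60% of a wild-type cDC1's UMIs (quartiles 1.32% and 1.96%) and 2.42% of a knockout cDC1's (1.87% and 3.03%), so the lower quartile in knockout lay above the wild-type median. The ranges overlapped, from 0.513% to 3.13% and from 0.532% to 4.34%. The difference was also not limited to cDC1. The median log2 ratio of the same list was 0.59 in cDC2, 0.93 in pDC, 0.84 in macrophages, 0.54 in B cells, 0.38 in CD8 T cells and 0.60 in NK cells and ILC1. The immediate early genes, which cell dissociation is known to induce, had a median of -0.22 in cDC1, with 1 of 27 (Fosl2) past 1.5-fold higher and 1 (Dusp2) past 1.5-fold lower. Without the cells of other markers the median was -0.14, with 1 higher and 2 (Dusp2 and Ier3) lower. Whether dissociation has a part in the heat-shock or immediate early values was not tested. With a single library per genotype, handling and genotype cannot be told apart.

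Genes of the type I interferon response were higher too. Of 14 listed genes with enough UMIs, 9 were past 1.5-fold higher and none lower, with a median log2 ratio of 0.89. Without the cells with other markers 6 of 13 were past it and the median was 0.52. Oasl1, an antiviral protein related to the OAS enzymes, stood at 248 CPM (221 to 277) in wild type and 581 CPM (542 to 623) in knockout, a log2 ratio of 1.23 that became 1.31 without those cells. Rsad2 was 25.0 CPM (17.1 to 35.2) and 173 CPM (152 to 197), a ratio of 2.76 or 2.0 without them. Ifit2, an RNA-binding antiviral protein, was 20.3 and 141 CPM, with ratios of 2.75 and 2.22. Parp14 had ratios of 1.98 and 1.27, Trim30a of 1.02 and 0.79, and Slfn5 of 1.04 and 0.14, so that Slfn5 fell under the fold. Irf7 and Ifi27l2a, in the same list, were not higher, with ratios of -0.39 and -0.16.

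At full depth 18 of the 86 wild-type and 45 of the 83 knockout cDC1 held Rsad2. In cells thinned to 2000 UMIs each, it was found in 2 of 84 (2.38%) and 14 of 82 (17.1%), with 2.73% and 4.93% of the B cells of each library as a background. Ifit2 was found in 4 of 84 (4.76%) and 16 of 82 (19.5%) thinned cDC1, and in 2.44% and 4.85% of B cells, and Oasl1 in 29.8% and 40.2%, with 6.18% and 11.6% of B cells. The wild-type cDC1 shares rest on 2 cells for Rsad2 and 4 for Ifit2. Their intervals, 0.290% to 8.34% and 1.31% to 11.7%, include the wild-type B cell shares. The B cell shares were higher in knockout too, so they are not a fixed background. B cells had medians of 3892 and 5175.5 UMIs before thinning. The interferon list held a median of 0.115% of a wild-type cDC1's UMIs and 0.201% of a knockout cDC1's, and the highest cell reached 0.762% and 0.985%. Other types of the knockout library also stood above wild type, with list medians of 0.36 in cDC2, 0.22 in pDC, 0.39 in macrophages, 0.50 in B cells, 0.36 in CD8 T cells and 0.49 in NK cells and ILC1. Rsad2 and Ifit2 levels in wild-type cDC1 were below those of wild-type cDC2, 381 and 172 CPM.

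The interferon-gamma list had only 4 genes with enough UMIs. Of these, 3 were past 1.5-fold higher with and without the cells of other markers, and none lower. The list median moved from 1.47 to 0.96 when those cells were left out. Iigp1, an interferon-inducible GTPase, was 21.8 CPM in wild type and 350 CPM in knockout, but 22.5 and 62.9 CPM without those cells, so its log2 ratio moved from 3.96 to 1.45. Irf1, a transcription factor of the interferon response, moved from 1.97 to 1.26. Cxcl9, which attracts CXCR3-bearing T cells, was 226 CPM (201 to 254) and 443 CPM (409 to 480), a ratio of 0.97 or 0.67 without them. Cxcl10 went from 0.99 to 0.45. Cxcl9 was found in 40 wild-type and 46 knockout cells, with 47% and 52% of its UMIs in the 5 richest.

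**Figure D4:**
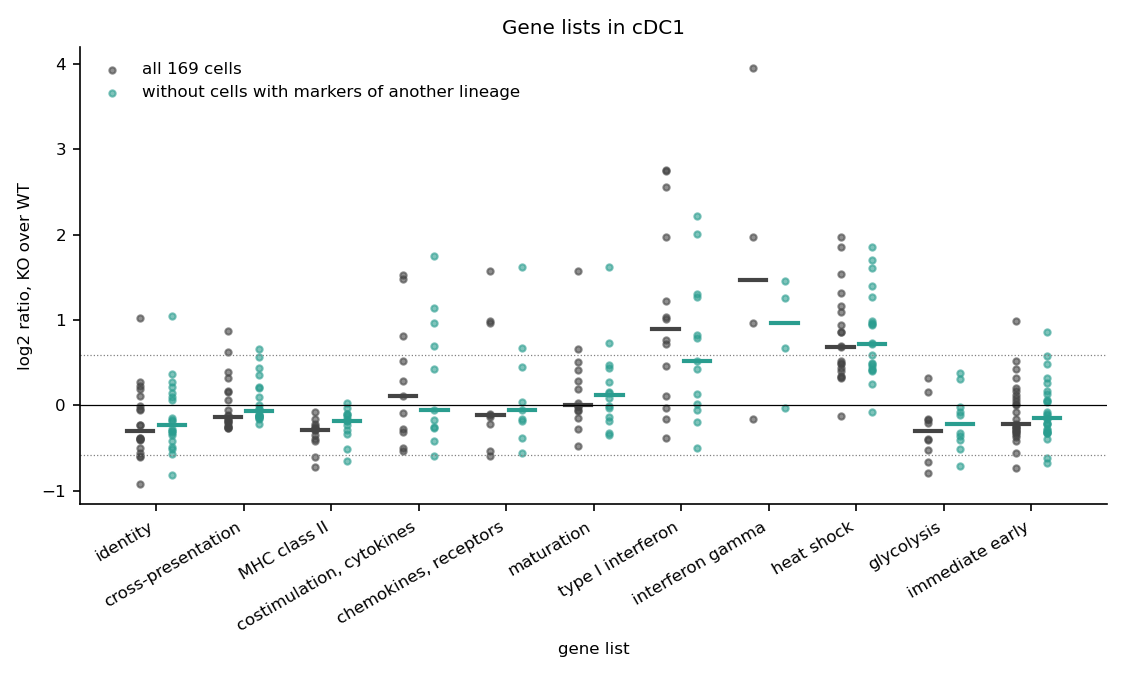
Log2 ratio of KO over WT for each gene with at least 100 UMIs in 11 gene lists, over all 169 cDC1 (grey) and without the cells with markers of another lineage (green). Bars are list medians and dotted lines 1.5-fold. The heat-shock median is 0.69 and 0.72, the type I interferon median 0.89 and 0.52, and the MHC class II median -0.28 and -0.18.

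The MHC class II list holds genes of the molecules that present antigen to CD4 T cells and related genes such as Ciita, Ctss, Ifi30 and Cst3. It was lower in knockout cDC1 by a small amount throughout. All 13 listed genes had ratios below 0, 2 of them past 1.5-fold (H2-Oa and H2-DMb2), with a median of -0.28. Without the cells with other markers 12 of 13 were below 0, 1 of them (H2-Oa) past 1.5-fold, and the median was -0.18. Cd74, the invariant chain, was 11917 CPM in wild type and 9787 CPM in knockout. H2-Ab1 was 5157 and 4226 CPM. Cst3, a protease inhibitor highly expressed in cDC1, was 11142 and 8342 CPM, a ratio of -0.42 (-0.45 to -0.38). H2-Oa, which restrains peptide loading, was 91.2 and 54.8 CPM, a ratio of -0.73 (-1.17 to -0.30). The median was -0.13 when cells with under 0.25% of UMIs on the identity list were left out. The cDC2 had the same median, -0.28, while the macrophages and the pDC (9 genes) had 0.54. It was -0.04 in B cells, 0.05 in CD8 T cells and 0.16 in NK cells and ILC1.

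For class I presentation and cross-presentation, the function cDC1 are known for, the list showed little difference. Of 20 genes, 2 were past 1.5-fold higher (Pdia3 and Nlrc5) and none lower, with a median of -0.14 and a range of -0.27 to 0.87. Without the cells of other markers only Pdia3 was past it, Nlrc5 was at 0.57 and the median was -0.07. B2m was 748 and 780 CPM and H2-K1 986 and 883 CPM. Psmb8, an immunoproteasome subunit, was 587 and 487 CPM. Rab43, a GTPase known to take part in cross-presentation by these cells, was 771 and 709 CPM. The chaperones of the loading complex went the other way, with Pdia3 at 263 and 405 CPM, Calr at 287 and 359 CPM and Canx at 211 and 276 CPM.

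The identity genes themselves were on balance somewhat lower in knockout. Of 20 genes, 15 had a ratio below 0, 3 of them past 1.5-fold (Id2, Sept3 and Snx22), and 1, Ly75, was past 1.5-fold higher. Without the cells of other markers 13 were below 0 and only Sept3 was past it downward, with Id2 at -0.57 and Snx22 at -0.52, and Ly75 was past it upward. The median was -0.31, or -0.23 without the cells of other markers. It was -0.09 without the cells of low identity, which left 85 wild-type and 65 knockout cells. That filter used this same list and took out mostly knockout cells, so this last value follows the choice of cells. Batf3 had a ratio of -0.39 (-0.68 to -0.11) and Irf8 of -0.23 (-0.33 to -0.13). Id2, a repressor needed for conventional dendritic cells, was 941 and 626 CPM, a ratio of -0.59 (-0.72 to -0.46). It was also lower in all other cells, 828 and 659 CPM. Tlr3, which senses double-stranded RNA, was 101 and 71.7 CPM, and Btla, an inhibitory receptor, 372 and 253 CPM. Ifi205 was 252 and 305 CPM. Ly75, the endocytic receptor DEC-205, was 67.1 CPM (53.6 to 82.8) and 137 CPM (118 to 158), a ratio of 1.02, with 57% and 59% of its UMIs in 5 cells.

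Of the list of nucleic acid and microbial sensors 4 genes had enough UMIs, 1 past 1.5-fold higher and none lower with and without the cells of other markers. The median was -0.20, or -0.17 without those cells. Ifih1, the RNA sensor MDA5, was the higher gene, at 204 and 348 CPM, a ratio of 0.77 or 0.69. Unc93b1, which carries endosomal Toll-like receptors, was 305 and 208 CPM, a ratio of -0.55.

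Costimulatory ligands and cytokines showed no common direction. Of 11 genes 3 were past 1.5-fold higher, with a list median of 0.11, and without the cells of other markers 4 were past it, 1 (Tnf) was past it downward and the median was -0.05. Cd86, a ligand of CD28, was 885 CPM (834 to 938) and 1269 CPM (1210 to 1331), and Cd80 was 83.4 CPM (68.4 to 101) and 148 CPM (128 to 170). Their ratios were 0.52 and 0.82, and 0.69 and 1.14 without the cells of other markers. Cd274, the inhibitory ligand PD-L1, was 50.7 and 143 CPM, a ratio of 1.48 that became 0.97. Il1b was 2758 and 2231 CPM. Tnf was 75.6 and 51.9 CPM, and Cd40 50.7 and 41.7 CPM. Havcr2 (TIM-3), which cDC1 are known to carry, was 264 and 323 CPM.

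Il12b, the IL-12 p40 subunit, was concentrated in a few cells. It was 106 CPM in wild type and 306 CPM in knockout, a log2 ratio of 1.52, but 348 of the 419 knockout UMIs came from 1 cell. The gene was found in 11 wild-type and 12 knockout cells, and at 10 or more UMIs in 6 and 4 cells. Without that cell 71 UMIs were left in knockout against 136 in wild type, which turned the ratio to -1.0, and with the richest cell of each library left out it was -0.54. The higher sum in knockout thus rests on a single cell. In the 4 knockout cells with at least 10 Il12b UMIs, Ly75 stood at 736 CPM against 91.9 CPM in the others. In the 6 wild-type cells it stood at 226 against 48.7 CPM. Other identity genes varied. In the 4 knockout cells Batf3 was 52.5 against 146 CPM, Irf8 883 against 1132 CPM and Id2 893 against 606 CPM. In the 6 wild-type cells Batf3 was 181 against 184 CPM, Irf8 1507 against 1284 CPM and Id2 1138 against 919 CPM. How many of the Ly75 UMIs came from the cell richest in Il12b is not given here. The knockout cell with 348 Il12b UMIs was among the 4 and held 32 of their 33 Ccr7 and 34 of their 40 Cd274 UMIs. Among the 6 wild-type cells, 1 carried markers of another lineage. The levels of these groups were not taken without those cells. Clec9a in the 6 wild-type and 4 knockout cells was 218 and 326 CPM, and Fscn1 had 1 and 2 UMIs. Both genes are part of the selection, so their levels here follow the choice of cells. Il12b had no UMI in wild-type cDC2 and 1810 and 1562 CPM in migratory dendritic cells.

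Ccr7, the receptor for migration to lymph nodes, was 24.2 CPM (16.4 to 34.3) and 73.9 CPM (60.2 to 89.7), a ratio of 1.58 or 1.62 without the cells of other markers. It was found in 14 wild-type and 27 knockout cells, with 77% of the knockout UMIs in 5 cells. The knockout cell richest in Il12b held 32 of the 101 knockout UMIs. After thinning to 2000 UMIs it was found in 4 of 84 and 4 of 82 cDC1. B cells, which express Ccr7, are no background for it. Migratory dendritic cells held 2939 and 2786 CPM. The maturation list as a whole had a median of 0.01, or 0.12 without the cells of other markers, with 2 of 14 genes past 1.5-fold higher in each case (Ccr7 and Socs3, or Ccr7 and Samsn1) and none lower. The list of chemokines and their receptors had a median of -0.11. Of its 9 genes with enough UMIs, 3 were past 1.5-fold higher and 1 lower. Without the cells of other markers the median was -0.048, with 2 higher and none lower. Cxcl16 was 211 and 140 CPM, a ratio of -0.59 that was -0.56 and under the fold without those cells. Ccl4 was 1446 and 995 CPM, a ratio of -0.54.

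**Figure D5:**
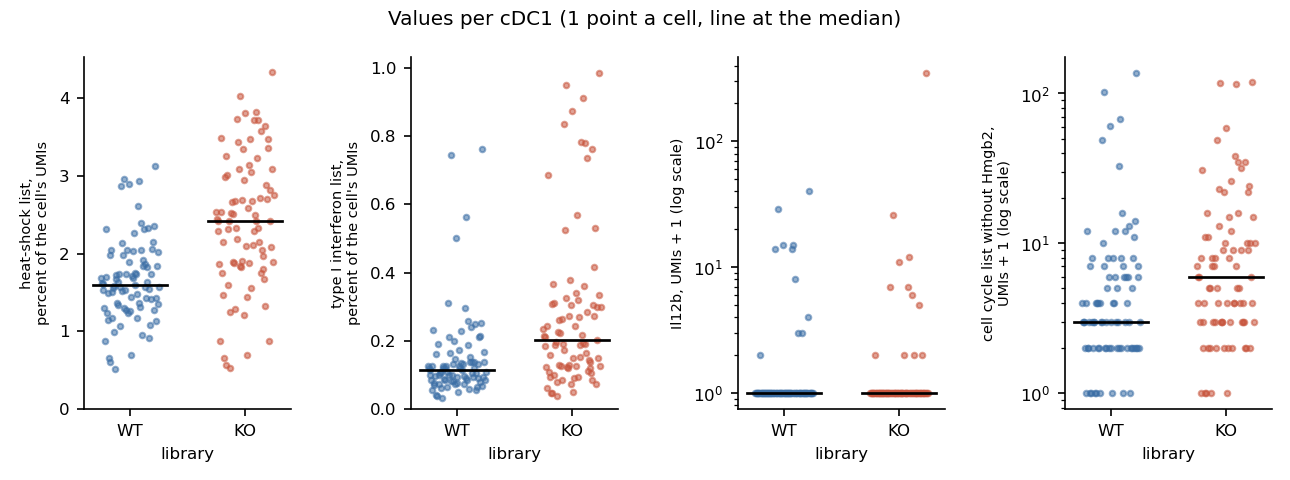
Values in each of 86 WT and 83 KO cDC1, with a line at the median: percent of the cell's UMIs on the heat-shock list (medians 1.60% and 2.42%) and on the type I interferon list (0.115% and 0.201%), and UMIs plus 1, on log scales, of Il12b and of the cell cycle list without Hmgb2. A single KO cell holds 348 Il12b UMIs.

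Cell cycle genes were present in some cDC1 of both libraries. At full depth 69 of 86 wild-type (80.2%) and 72 of 83 knockout cells (86.7%) had at least 3 UMIs of the 25 listed genes, a range of a score and not a cell type. Thinned to 2000 UMIs, the shares were 22.6% (14.2 to 33.0) and 22.0% (13.6 to 32.5), against 6.18% and 5.29% of B cells. Thinned to 1000 UMIs they were 6.98% (2.60 to 14.6) and 15.7% (8.61 to 25.3). Without Hmgb2, which most cells held, they were 9.52% (4.20 to 17.9) and 17.1% (9.66 to 27.0), and 1.44% and 1.23% of B cells. Thinned cells at exactly 2 and 3 UMIs of the full list were 9 and 9 in wild type and 14 and 3 in knockout. At least 20 UMIs without Hmgb2 were reached by 6 wild-type and 15 knockout cells at full depth. In these, Xcr1 was 179 and 113 CPM, against 181 and 136 CPM in the remaining members. Irf8 was 1447 and 1086 CPM, against 1287 and 1123 CPM. Xcr1 is part of the selection, so its level follows the choice of cells. The 6 wild-type cells include the cell with 1832 neutrophil marker UMIs, and these levels were not taken without it. Mki67, a proliferation marker, was 61.6 CPM (48.8 to 76.8) in wild type and 146 CPM (127 to 168) in knockout, a ratio of 1.24 or 1.41 without the cells of other markers. The 5 richest cells held 46 of its 79 wild-type and 97 of its 200 knockout UMIs. After thinning to 2000 UMIs it was found in 11 of 84 (13.1%) and 13 of 82 (15.9%) cDC1. Top2a was 65.5 and 80.4 CPM, Pcna 62.4 and 93.6 CPM, and Hmgb2 466 and 451 CPM. Of the 4 listed genes with enough UMIs only Mki67 was past 1.5-fold higher, with and without the cells of other markers. None was past it lower, and the list median was 0.44, or 0.51 without those cells. The S-phase linker histone Hist1h1b was 22.6 and 167 CPM, a ratio of 2.84, with 181 of 228 knockout UMIs in 5 cells.

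By size alone, the highest ratios among genes with a mean of at least 50 CPM and a cDC1 level at or above that of other cells included those of C430049B03Rik (4.38), Pcdh17 (4.38), Flt1 (3.73), Hist1h1b (2.84), Simc1 (2.64), Arhgef7 (2.08), Abcb1b (2.03), Nup210l (1.88), Hspa4l (1.86), Numb (1.81) and Hist1h1e (1.78). Several belonged to the cells of other markers. Without those cells, Flt1, a VEGF receptor of endothelium, had 16.6 CPM in knockout in place of 155, Pcdh17, a protocadherin, 10.8 in place of 96.5, and C430049B03Rik 0.828 in place of 96.5. Arhgef7, Nup210l and Numb had ratios of 0.70, 0.36 and 0.66. Hist1h1b, Simc1, Abcb1b, Hspa4l and Hist1h1e had ratios of 1.85 to 3.25. Simc1 had 83% of its knockout UMIs in 5 cells, and its ratio was 0.64 without the 10 richest cells. Mertk and Mrc1, uptake receptors of macrophages and endothelium, likewise went from 2.09 and 2.30 to 0.68 and -0.30. They were the 2 of 19 uptake list genes past 1.5-fold higher, with none lower and a median of -0.084. Without those cells 2 of 17 were past it higher (Dock8 and Lcp1), none lower, and the median was 0.038.

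Among the 12 lowest ratios by the same rule, Rrad and Timd4 lay mainly in a few wild-type cells, with 57% and 90% of their wild-type UMIs in 5 cells. Rrad, a small GTPase, was 229 CPM (204 to 257) in wild type and 43.9 CPM (33.5 to 56.5) in knockout, a ratio of -2.37 that was -2.35 without the cells of other markers and -1.59 without the 10 richest. Mycl had a ratio of -1.21 (-1.63 to -0.82), with 53 wild-type and 39 knockout cells holding a UMI, and -1.04 without the cells of other markers. Id1, an inhibitor of DNA binding, was 345 and 156 CPM, a ratio of -1.15 or -1.30 without the cells of other markers. Ptk2b, the kinase PYK2, was 350 and 165 CPM, a ratio of -1.09. Hist1h2bc followed at -1.41, Fuca1, a lysosomal fucosidase, at -1.0, Nckap1l, an actin regulator of blood cells, at -0.98, Leprotl1 at -0.96, Cited2 at -0.95, Nck2 at -0.93 and Ppfia4 at -0.91. Timd4, a receptor for dying cells, had a ratio of -1.48, in which 53 of 109 wild-type UMIs came from 1 cell, and the ratio was -0.48 without the cells of other markers.

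Of 10 glycolysis genes 8 had a ratio below 0, 2 were past 1.5-fold lower (Ldha and Gpi1) and none higher, with a median of -0.30. Without the cells of other markers 8 were below 0, only Ldha was past 1.5-fold, Gpi1 was at -0.51 and the median was -0.21. The median of the genes' upper bounds was then 0.04. Ldha, lactate dehydrogenase A, was 328 CPM (297 to 360) in wild type and 189 CPM (166 to 213) in knockout, a ratio of -0.79, and Gpi1 was 223 and 141 CPM. Pfkp went the other way, at 234 and 292 CPM. The list was also lower in the other types, with medians from -0.68 in macrophages to -0.28 in CD8 T cells.

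The ligands of the receptors used to choose the cells were found mainly elsewhere. Xcl1, the ligand of XCR1, stood at 1006 CPM (980 to 1032) in wild-type and 689 CPM (664 to 714) in knockout NK cells and ILC1, and at 311 CPM (288 to 336) and 131 CPM (118 to 144) in CD8 T cells. It was 10.1 and 6.58 CPM in cDC1, against 38.4 and 10.8 CPM in B cells. NK cells and ILC1 were 7.02% and 3.73% of filtered cells. Flt3l, the ligand of FLT3, was low throughout, at 15.9 and 12.2 CPM in CD8 T cells and 11.5 and 10.2 CPM in NK cells and ILC1. The genes of the receptors lie at chr9:123852315-123862029 (Xcr1, minus strand) and chr6:129408862-129424763 (Clec9a, plus strand, overlapping Clec1b and Gm43914 on the same strand) on GRCm38.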

How the data were processed

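Single-cell RNA sequencing of liver non-parenchymal cells was deposited as raw UMI counts per gene and barcode. The authors made these counts, per the file headers, by Cell Ranger 7.0.1, while the submitters' processing notes name Cell Ranger 3.1.0, Seurat and mm10, a difference that was not resolved. Per the labels, libraries were 10x Chromium 3′ v3. The use of strand and of intronic reads is not given in the sources used here. Of 32285 gene identifiers, 32158 (99.6%) occur in GENCODE M21 (GRCm38), used for positions only.

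Barcodes needed 200 or more genes and no more than 20% mitochondrial UMIs, and cDC1 were taken by the rule on raw counts. Doublets were not removed in the values given, and removing the highest Scrublet scores (scanpy 1.11.5, 0.8% of cells per 1000 cells) was an alternative. UMIs were summed per library and divided by the total of those cells (CPM). Intervals at 95% are exact: Poisson for CPM, Clopper-Pearson for shares and conditional for ratios. They cover counting error only. Genes were compared when the libraries together held 100 or more UMIs, and 1.5-fold (between libraries) or 4-fold in both libraries (between types) counts as past the fold. A count of 0 is given with the limit of 3 counts. Shares of cells were also taken after thinning each cell to 2000 UMIs, for which 2 cDC1 of wild type and 1 of knockout were too shallow.

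Genes named by size were the 12 highest and 12 lowest log2 ratios with a mean of at least 50 CPM whose cDC1 level, in the library where they were higher, reached that of the other cells, and the 15 genes furthest above all other cells. A gene chosen this way is not reported here. The first leaves out genes of the selection and those of mitochondria, ribosomal proteins and haemoglobin. Any member of the 14 gene lists could be named. The selection rule, the lists and the markers were chosen with earlier results of these data known, and nothing here is independent support for them. Comparison types were taken by rules on raw counts: cDC2 with Cd209a and with Flt3 or Clec10a, pDC with at least 3 Siglech UMIs, migratory dendritic cells with at least 3 Fscn1 and 2 Ccr7 UMIs, macrophages with at least 50 C1q UMIs, and B cells with at least 5 UMIs of Cd79a, Cd79b and Ms4a1. The ratio and interval steps were tested on simulated counts.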

Additional observations from a re-analysis of the deposited data

How the results depend on the processing

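No paired analysis was possible because each genotype has 1 library, so no replicate was left out. Results were recomputed under 27 alternatives. Those on markers of other lineages, C1q limits of 20 and 30, a Cd3 UMI, low identity, the richest cells, all UMIs and the list without Hmgb2 were chosen after seeing the data. The heat-shock and both interferon medians stayed above 0, and the MHC class II and immediate early medians and the cDC1 share of dendritic cells below 0, under each alternative that gave them a value. Of 1828 values of 98 genes, 1322 stayed within the counting interval of the reported value and 491 moved out of it. Of these 491, 43 had the other sign, all for genes whose reported ratio was under the fold. A further 15, of genes past the fold, turned their sign. Genes with under 20 UMIs under an alternative got no value. A list median needed only a single gene with enough UMIs, so some medians rest on few genes. For the changes listed next the cause was not tested.

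All ratios here are log2. Alternatives on the cDC1 limits left the rules of the other dendritic cells unchanged. At most 3 C1q UMIs left 338 genes with enough UMIs, and the chemotaxis median there had the value of Ccl4. With at most 3 C1q UMIs (20 and 7 cells), the cDC1 share ratio was -1.68 and that among dendritic cells -2.49, the medians were -0.76 for identity, -0.52 for MHC class II, 1.07 for chemotaxis and -0.65 for glycolysis, 53 genes were past the fold higher, and Id1 (0.0076), Cited2 (0.11), Cxcl9 (-1.46), Cxcl16 (0.62), Hspa5 (-0.66) and Dusp2 (0.56) turned. At most 20 gave a share ratio of 0.28, sensors 0.14 and interferon-gamma 1.03, and at most 30 gave 0.35, identity -0.092 and MHC class II -0.17. A minimum of 3 Xcr1 and Clec9a UMIs gave interferon-gamma 1.15, and a minimum of 1 gave 1039 higher and 219 lower genes, sensors 0.26 and chemotaxis 0.38. No Flt3 and Wdfy4 minimum gave 1060 and 226 genes, MHC class II -0.50, interferon-gamma 2.31 and uptake -0.24.

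With the knockout library thinned to wild-type depth, MHC class II was -0.18, interferon-gamma 0.80 and Il12b -1.38. Cells thinned to 2000 UMIs before selection gave a share ratio of 0.41, 22 higher and 27 lower genes, identity 0.14, MHC class II -0.14, chemotaxis -0.81, Ldha 0.35 and Gpi1 0.069. Thinned before summing, there were 32 and 33 genes, chemotaxis and interferon-gamma at 0.57, maturation -0.12, heat shock 0.49, glycolysis 0.071 and Ppfia4 0.66. Thinning leaves fewer genes with 100 UMIs, 250 before selection and 510 before summing. Of the medians before selection, identity had the value of Naaa and chemotaxis that of Ccl4. Before summing, the 0.57 of chemotaxis and interferon-gamma was the value of their shared gene Cxcl9. Scaling by the median of ratios gave 239 lower genes. Without cells of at least 3 cell cycle UMIs (17 and 11 cells left), 53 genes were higher, identity was -0.76, MHC class II -0.78, chemotaxis 0.22, interferon 1.69, Cited2 0.33 and Il12b -3.83.

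A minimum of 20 UMIs gave 1969 and 499 genes, sensors 0.42, interferon-gamma 1.82 and heat shock 0.85, one of 400 gave 81 and 43, cycle -0.048 and interferon-gamma 1.97, and a 2-fold limit 274 and 21. At the minimum of 400 UMIs the cycle median was the value of Hmgb2. Without the richest cell of each library Il12b was -0.54. Without cells of other markers, 382 genes were higher, MHC class II was -0.18, interferon-gamma 0.96 and Mrc1 -0.30. Without cells of low identity these were 329, -0.13, 0.72 and -0.20. Identity was then -0.088, on the list that this filter itself used. Cells with at least 3 cell cycle UMIs were 6.98% of wild type and 15.7% of knockout when thinned to 1000 UMIs, 80.2% and 86.7% at full depth, and 9.52% of wild type without Hmgb2.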
